A study of Drosophila melanogaster with 2 samples.

Results

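Proteasome subunit genes were the 48 protein-coding genes, of 13968 in the Ensembl annotation of the fly genome, whose symbol starts with Prosalpha, Prosbeta, or with Rpn or Rpt and a digit. They comprised 16 paralogs, whose symbol carries a T or an R after the subunit number, and 32 general subunit genes. Chromatin accessibility at their transcription start sites (TSSs) was read from ATAC-seq, in which the transposase Tn5 cuts open DNA, on nuclei of the Drosophila mushroom body (MB), the memory centre of the fly brain. The series held 2 replicates of 1 group of naive adult males with the genotype w*;UAS-Unc84::2xGFP/+;R14H06-Gal4/+, which were kept alone and never trained. Both transgenes were heterozygous. Each replicate was a pool of nuclei from 50 to 60 heads, taken at the time of day that lies 1 h after the start of courtship training in trained flies. The driver R14H06-Gal4 puts the GFP-tagged nuclear envelope protein chiefly into Kenyon cells, the intrinsic MB neurons, and faintly into a few other cells, so that a weak peak in most nuclei cannot be told apart from a strong peak in a few. Nothing was compared between groups of flies, and the contrasts below are between genes of the same libraries, given as descriptions without a test.

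The proteasome degrades proteins that carry ubiquitin chains. Its 20S core is a barrel of outer alpha rings and inner beta rings, and the beta rings hold the proteolytic sites. The 19S regulatory particle sits on the barrel, where the Rpt ATPases unfold substrates and the Rpn subunits bind ubiquitin, remove it and hold the particle together. Several subunits have a second gene in Drosophila, and genes with a T in the symbol are named for their use in the testis. In neurons, protein breakdown by the proteasome is known to take part in synaptic plasticity.

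The measure used throughout was the TSS peak. Of all peaks that came within 500 bp of an annotated TSS of a gene, it is the one most enriched. A gene is called open in both replicates where each list held a TSS peak for it. Fold enrichment is the ratio of the fragment pileup at the summit to a background from the same library. Its percentile is the percent of protein-coding genes with a TSS peak in that replicate whose value is lower. The lists held 13868 peaks in replicate 1 and 14583 in replicate 2. Summits of members had pileups of 185 to 807 in replicate 1 and of 166 to 842 in replicate 2, and the intervals given are exact Poisson 95% intervals that cover counting error only. Marker genes of the MB were set beside those of other head cells. All 13 matched MB genes had a TSS peak in both replicates, with a median percentile of 86.2, against 3 of 13 genes of other head cells, namely moody, Eaat1 and norpA. Of the others, trp and Hml had a TSS peak in replicate 2 only. The list of other head cells held no markers of brain neurons outside the MB. It therefore could not set Kenyon cells apart from other neurons. Among all protein-coding genes the share with a TSS peak in both replicates was 55.9%.

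Peaks were called at the start sites of nearly all general subunit genes and of few paralogs. A TSS peak in both replicates was found at 2 of 16 paralogs (12.5%) and at 30 of 32 general subunit genes (93.8%), where 55.9% of all protein-coding genes had one. No peak in any replicate was found at 14 paralogs (87.5%) and at 1 general subunit gene, against a background of 41.4%. The split ran through each class of subunit. Among alpha subunit genes a TSS peak in both replicates was present at 0 of 5 paralogs and 6 of 7 general genes, and among beta subunit genes at 1 of 6 paralogs and 7 of 7 general genes. Among Rpt genes it was present at 1 of 3 paralogs and 5 of 6 general genes, and among Rpn genes at 0 of 2 paralogs and 12 of 12 general genes. Among genes with 1 TSS position, a TSS peak in both replicates was found at 1 of 14 paralogs and 21 of 22 general genes, against 48.4% of 10269 protein-coding genes.

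**Figure D1:**
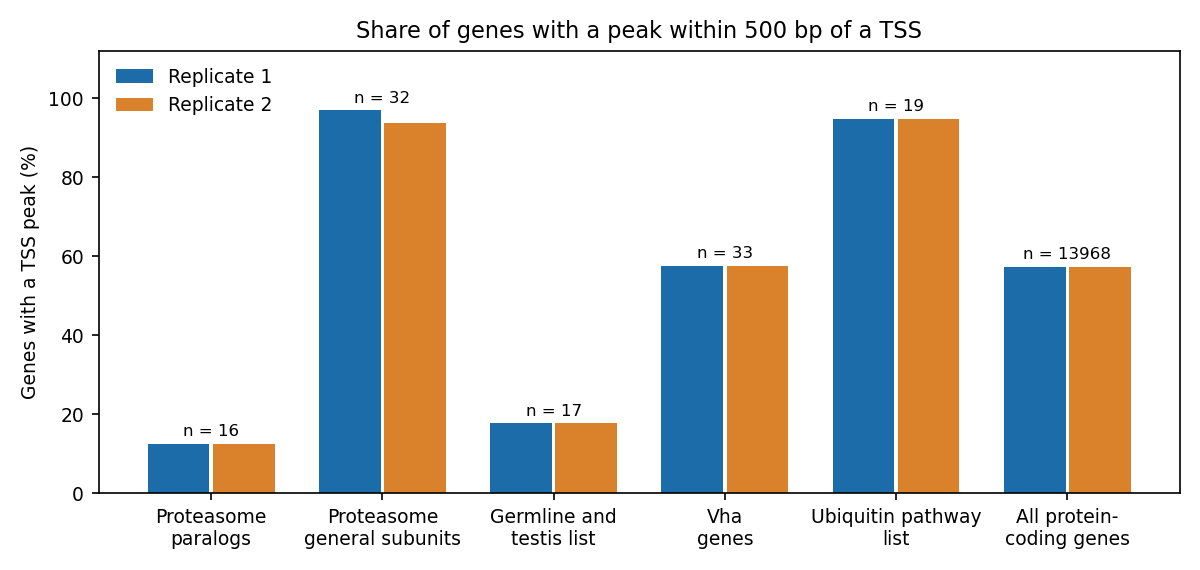
Share of genes with a TSS peak (percent, vertical axis) in each replicate (bars), for the proteasome paralogs, the general subunit genes, 3 other gene lists and all protein-coding genes, with the number of genes above the bars. Paralogs stood at 12.5% in both replicates and general subunit genes at 96.9% and 93.8%, against 57.3% and 57.2% of all genes.

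One pair of genes could not be judged. Prosalpha1R and Prosalpha1, which encodes an outer-ring subunit, lie close together on chromosome 2R, at 7830413 to 7831771 and at 7827303 to 7828678. Of the 100-base stretches within 500 bp of their TSSs, 0% occurred once in the genome, and 885 of the 902 stretches around the one TSS were also found around the other. Reads that mapped to several places had been removed by the authors, so the lack of a peak at this pair is no measurement of closed chromatin. At every other member 100% of the stretches were unique. Without this pair, 2 of 15 paralogs and 30 of 31 general subunit genes had a TSS peak in both replicates.

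Each paralog was then set beside its own general subunit gene. The 15 pairs with unique sequence held 11 general genes, so that some general genes recur. Of these pairs, 13 had a TSS peak in both replicates at the general gene only, 2 had one at both genes and 0 had one at the paralog only. Over the 13 paralogs with unique sequence and no TSS peak, the nearest peak was 2287 to 24542 bp away in replicate 1, with a median of 4117 bp, and 1910 to 24541 bp away in replicate 2, with a median of 4032 bp. Prosbeta4R1 and Prosbeta4R2, which lie side by side on 2L, were the farthest of all, at 24542 and 22194 bp in replicate 1, while Prosbeta4, a non-catalytic core subunit gene, had a peak 14 bp from its TSS. Prosalpha6T lay 4117 and 9033 bp from the nearest peak, while the peak of Prosalpha6 covered its TSS.

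The rule has a window of 500 bp, and few members were near its edge. Nearest to the edge from inside was Prosalpha4, an outer-ring subunit gene, whose peak ended 388 bp upstream of the TSS in replicate 1 and 384 bp upstream in replicate 2. Beyond Prosalpha1R and Prosalpha1, which have no unique sequence, the members closest outside were Prosalpha4T1, at 2287 and 1910 bp, and Rpt2 in replicate 2, at 1967 bp. Rpt2, an ATPase gene, was the only member with a TSS peak in 1 replicate. In replicate 1 this peak had a fold enrichment of 1.50 (1.31 to 1.71), a −log10 q of 7.15 and a percentile of 4.76, and it was 337 bp wide.

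The 2 paralogs with a TSS peak had weak peaks that they shared with a neighbour. Prosbeta2R2, the related copy of a catalytic core subunit gene, had a fold enrichment of 1.94 (1.73 to 2.17) in replicate 1 and 1.82 (1.62 to 2.05) in replicate 2, and percentiles of 18.4 and 18.2. Prosbeta2 itself had 2.12 (1.83 to 2.45) and 1.80 (1.55 to 2.07), so that the intervals of the copy and its general gene overlapped in both replicates. The peak of Prosbeta2R2, at chr3R:5219443-5220191 in replicate 1, also covered the TSS of the divergent gene CG1116, 129 bp away, and its summit lay at −184 and −101 bp from the TSS of Prosbeta2R2, where negative is upstream. Rpt3R, the related copy of an ATPase gene, had 1.76 (1.52 to 2.01) and 1.51 (1.30 to 1.74), with percentiles of 12.8 and 6.28. Its peak, at chr3R:9756252-9757392 in replicate 1, covered the TSS of Alg12, a glycosylation enzyme gene on the opposite strand 19 bp away. Rpt3 had 3.19 (2.87 to 3.52) and 2.96 (2.67 to 3.27), above Rpt3R without overlap of the intervals. A peak was then counted only for the gene whose TSS was nearest to its summit. By this rule 0 of the 2 paralogs and 19 of the 30 general subunit genes kept a TSS peak in both replicates. Of the 7803 protein-coding genes open in both replicates, 5346 kept one.

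The general genes whose promoter sequences are printed here were picked for a motif match, and general genes without such a match are not shown. Sequences run from 120 bases before to 29 bases after the annotated gene start, which is base 0. They are given 5′ to 3′ on the strand of the gene, from the RefSeq copy of the Release 6 assembly (dm6). Capitals mark exact matches to the motifs searched, on either strand. The first set holds general subunit genes with TATCGATA, the DNA replication-related element (DRE) bound by DREF.
Prosalpha6 (chr2L:10221231-10221380, plus strand): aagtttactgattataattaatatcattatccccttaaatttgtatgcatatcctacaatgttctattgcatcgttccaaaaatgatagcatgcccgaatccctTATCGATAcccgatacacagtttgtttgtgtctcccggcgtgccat
Prosbeta2 (chr3L:14999831-14999980, plus strand): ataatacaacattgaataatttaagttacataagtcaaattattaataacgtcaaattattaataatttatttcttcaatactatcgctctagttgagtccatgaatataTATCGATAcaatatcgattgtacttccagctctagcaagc
Prosbeta6 (chr3L:16610389-16610538, minus strand): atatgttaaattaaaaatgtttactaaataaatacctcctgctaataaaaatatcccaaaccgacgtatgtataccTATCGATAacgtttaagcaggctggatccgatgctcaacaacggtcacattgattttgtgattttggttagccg
Rpt5 (chr3R:23752756-23752905, plus strand): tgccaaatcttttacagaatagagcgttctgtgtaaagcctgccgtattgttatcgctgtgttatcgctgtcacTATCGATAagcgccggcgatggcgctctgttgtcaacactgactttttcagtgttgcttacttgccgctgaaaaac
Rpn7 (chr3R:22462025-22462174, minus strand): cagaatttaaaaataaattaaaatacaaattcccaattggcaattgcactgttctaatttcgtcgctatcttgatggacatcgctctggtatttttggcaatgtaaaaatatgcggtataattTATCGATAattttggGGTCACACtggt
The next set holds general subunit genes with GGTCACAC, a core promoter element known as Motif 1. In the genes printed here Motif 1 begins close to the gene start. In Rpn1 it overlaps a match to TGACNNNGC, and Rpn7 above carries both the DRE and Motif 1.
Prosalpha2 (chr3R:12431201-12431350, plus strand): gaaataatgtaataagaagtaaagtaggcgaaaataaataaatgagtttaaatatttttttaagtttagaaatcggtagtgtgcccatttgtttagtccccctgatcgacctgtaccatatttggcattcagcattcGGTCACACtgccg
Rpn1 (chr3L:19914931-19915080, plus strand): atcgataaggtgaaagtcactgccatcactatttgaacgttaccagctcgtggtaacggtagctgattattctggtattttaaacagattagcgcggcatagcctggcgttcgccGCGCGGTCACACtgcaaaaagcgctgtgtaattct
The last set holds paralogs of genes above and the other paralog with a TSS peak, none of which has either element in the stretch shown.
Prosalpha6T (chr2L:13231919-13232068, plus strand): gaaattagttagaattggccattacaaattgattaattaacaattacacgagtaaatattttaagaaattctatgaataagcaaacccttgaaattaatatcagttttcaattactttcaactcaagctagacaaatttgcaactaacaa
Prosbeta2R2 (chr3R:5219499-5219648, minus strand): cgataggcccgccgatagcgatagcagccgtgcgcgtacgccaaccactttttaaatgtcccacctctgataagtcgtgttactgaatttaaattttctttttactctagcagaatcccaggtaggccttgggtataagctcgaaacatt
Rpt3R (chr3R:9756481-9756630, minus strand): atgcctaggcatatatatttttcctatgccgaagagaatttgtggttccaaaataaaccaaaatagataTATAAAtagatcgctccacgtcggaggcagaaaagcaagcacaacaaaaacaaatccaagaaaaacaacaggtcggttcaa

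Over the whole promoter window, from 250 bases before to 50 bases after the gene start, the DRE was found at 0 of 16 paralogs and at 12 of 32 general subunit genes (37.5%), against 9.36% of all protein-coding genes. Among genes open in both replicates it was found at 12 of 30 general genes (40.0%) and at 14.7% of all genes. The matches began between positions −217 and 26 from the gene start, with a median of −45, and 8 of the 12 began no more than 100 bases before it. The window can also hold the promoter of a neighbour. The nearest other TSS was divergent and within 500 bp for 62.5% of general genes, 12.5% of paralogs and 27.1% of all genes. The matches of Rpn13 at −217, Rpn3 at −197 and Prosbeta1 at −121 lay near divergent TSSs, 271, 178 and 121 bp away. To which gene of a pair a match belongs was not tested. The 12 genes came from every class: Prosalpha3, Prosalpha5 and Prosalpha6, Prosbeta1, Prosbeta2 and Prosbeta6, Rpt5, and Rpn3, Rpn7, Rpn9, Rpn12 and Rpn13. The share was lower around the summits, in a shorter window. Within 100 bases of the summit it was found at 12.9% of general genes in replicate 1 and 20% in replicate 2, against 7.15% and 6.88% of all genes with a TSS peak.

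Of the other elements, Motif 1 was found at 0 paralogs and at 5 general genes (15.6%), against 7.69% of all genes and 12.9% of genes with a TSS peak. These were Prosalpha2, Prosalpha4, Prosbeta3, Rpn1 and Rpn7, and all 5 matches lay on the strand of the gene. They began at positions −1 to 33, except in Prosbeta3. There the match began at −216, near the TSS of the divergent Iru, 230 bp away. TGACNNNGC, the antioxidant response element bound by Cnc with Maf-S, which control proteasome genes in several animals, was found at 1 paralog, Prosbeta4R2, and at 5 general genes, against 8.62% of all genes. Those general genes were Prosalpha2, Prosbeta3, Rpn1, Rpn7 and Rpt6, and in Prosbeta3 and Rpn1 a match overlaps Motif 1. The E-box CACGTG was found at 0 members, against 4.2% of all genes. GAGAGAG was found at 2 paralogs, Prosbeta2R2 and Rpt4R, and at 0 general genes, against 5.86%. TATAAA was found at 5 paralogs and 13 general genes, against 45.8%. A match is a stretch of letters, and binding was not measured.

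**Figure D2:**
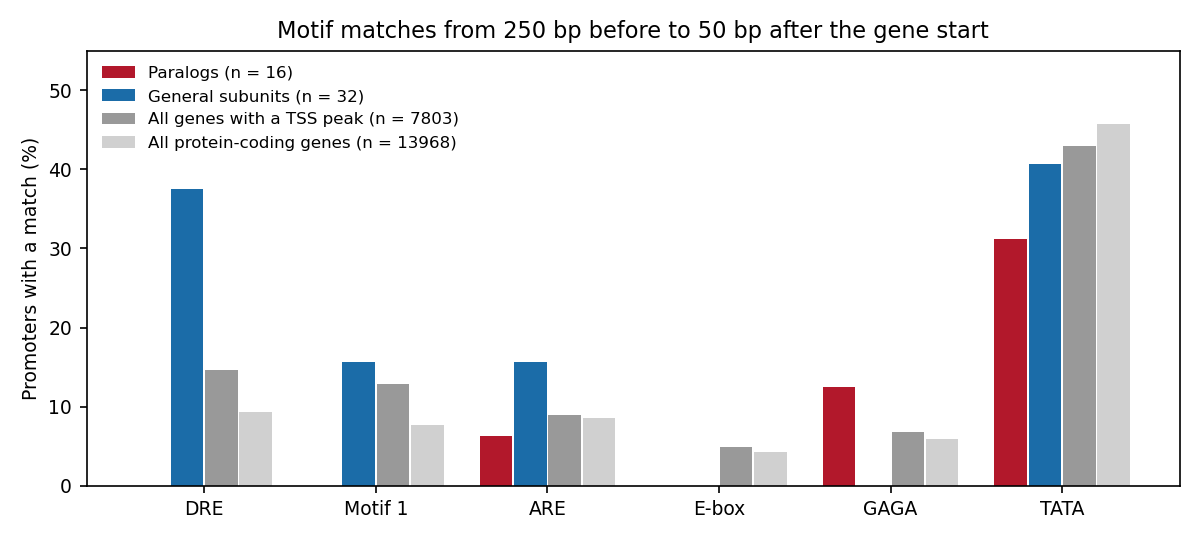
Percent of promoter windows with an exact match on either strand (vertical axis) to each of 6 motifs, for paralogs, general subunit genes, all protein-coding genes with peaks in both and all protein-coding genes. For the DRE the bar of the general subunit genes reaches 37.5% and the paralogs have none, against 14.7% and 9.36% of the gene sets in grey.

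Among TSS peaks, those of the general subunit genes ranked low. Over the 30 general genes open in both replicates, the median of the mean percentile was 28.9, where all such protein-coding genes had 51.0. The median fold enrichment was 2.29 in replicate 1 and 2.10 in replicate 2, against 2.83 and 2.70 for all genes. A mean percentile under 50 was found for 25 of the 30 genes (83.3%), against 49.1% of all genes, and one under 25 for 14 genes (46.7%), against 23.3%. Only Rpn8 reached 75 or more, as 25% of all genes did. The same order held in every class: the medians were 28.3 for the alpha, 35.3 for the beta, 33.7 for the Rpt and 25.6 for the Rpn genes, all below the median of all genes. Peaks of general genes were also narrower, with median widths of 1015.5 and 1146 bp, against 1288 and 1266 bp for all genes.

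The background around these peaks was higher too. At the summits of general genes the median background was 142.7 and 148.7 fragments, against 126.0 and 131.7 for all genes, while the median pileup was 329 and 328, against 360 and 351. Ranked by pileup alone, the general genes had a median percentile of 44.2, still under the middle of the list but closer to it. This ranking was chosen after the data were seen. Ranked among all peaks of a replicate, TSS peaks or not, the general genes had a median percentile of 58.8, above the middle of the list, against 73.6 for all genes open in both replicates.

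**Figure D3:**
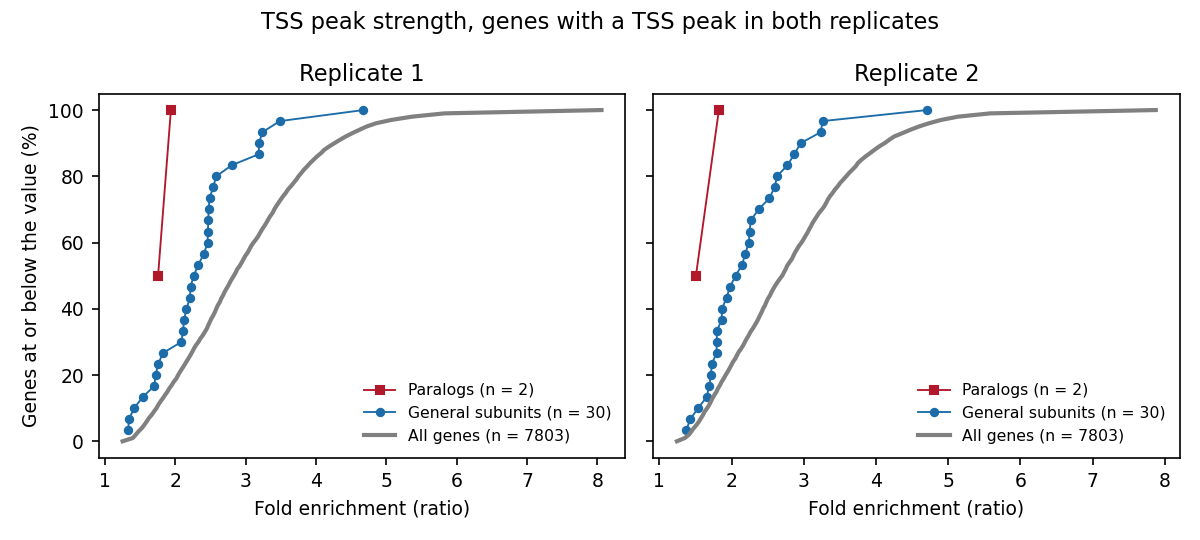
Cumulative percent of genes (vertical axis) by fold enrichment of the TSS peak (horizontal axis, ratio) in each replicate, for the 2 paralogs and the 30 general subunit genes open in both replicates and for all 7803 such protein-coding genes. The curve of the general subunit genes runs left of that of all genes, with medians of 2.29 and 2.10 against 2.83 and 2.70.

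Outer-ring genes spanned the whole range of the 20S core. Prosalpha6 was highest, with a fold enrichment of 3.49 (3.18 to 3.82) in replicate 1 and 3.26 (2.95 to 3.59) in replicate 2, a mean percentile of 72.1. Prosalpha5 followed with 2.80 and 2.52, a mean percentile of 47.4. The intervals of these neighbours in the order did not overlap in replicate 1, with 2.49 to 3.14 for Prosalpha5, nor in replicate 2, with 2.23 to 2.84. Of those with a TSS peak, Prosalpha3 was lowest, at 1.34 (1.21 to 1.49) and 1.43 (1.29 to 1.58), with a mean percentile of 2.03. Its narrow peak of 276 bp in both replicates began 22 and 27 bp inside the gene. Prosalpha4, whose peak lay upstream, had 1.41 and 1.54 and a mean percentile of 4.58, and its intervals overlapped those of Prosalpha3.

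Inner-ring genes were more alike. Prosbeta6 had 2.47 (2.20 to 2.77) and 2.77 (2.49 to 3.08), a mean percentile of 45.3, and Prosbeta3 had 2.58 (2.34 to 2.84) and 2.63 (2.39 to 2.88), a mean percentile of 45.1, so that these non-catalytic subunit genes could not be put in order. The peak of Prosbeta6 had its summit 1123 and 1106 bp downstream, near the TSS of CG4098 at 1071 bp, and covered both start sites. Its percentiles, 36.4 and 54.1, had the widest gap between replicates of all members. Prosbeta4 was lowest, with 1.54 (1.34 to 1.75) and 1.69 (1.49 to 1.91), a mean percentile of 9.34. Prosbeta2, which encodes the subunit with trypsin-like activity, came next with the values given beside Prosbeta2R2. Of the other catalytic subunit genes, Prosbeta5 had 2.26 (2.01 to 2.54) and 1.79 (1.57 to 2.03), and Prosbeta1 had 2.47 (2.23 to 2.74) and 2.25 (2.02 to 2.50). The intervals of these catalytic subunit genes overlapped within each replicate, although the mean percentiles were 20.7, 23.0 and 35.3.

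Among the ATPase genes, Rpt3 was highest with a mean percentile of 61.8. Its summit lay at −692 and −716 bp from the TSS, negative being upstream, within a peak that also covered the TSS of the divergent CG11122, 375 bp away. Rpt5 had 2.49 (2.20 to 2.80) and 2.60 (2.32 to 2.89), a mean percentile of 42.6. Rpt4 was the lowest with a peak in both replicates, at 1.72 (1.50 to 1.97) and 1.71 (1.50 to 1.95), a mean percentile of 12.5. Rpt6 had 2.16 (1.86 to 2.49) and 1.86 (1.59 to 2.17), a mean percentile of 22.8, and its intervals overlapped those of Rpt4.

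The non-ATPase genes held both ends of the range. Rpn8, which encodes the partner of the deubiquitinase Rpn11, had 4.67 (4.36 to 5.01) and 4.71 (4.39 to 5.03), a mean percentile of 95.3, and stood at rank 423 of 7997 and 330 of 7995. No other member reached this level, and the next, Prosalpha6, had intervals that ended below those of Rpn8 in both replicates. Rpn8 has TSSs at 24400028 and 24403005 of chromosome 2R, and the peak, at 24401490 to 24403539 in replicate 1, covered the downstream one together with a TSS of Slik, a protein kinase gene. When genes were given their most upstream TSS alone, Rpn8 lost its TSS peak. Rpn8 also lost it when a peak was counted only for the TSS nearest to its summit. Other genes high in their class, listed below, did so too. Rpn6, a lid subunit gene, had 3.24 (2.96 to 3.54) and 3.24 (2.96 to 3.53), a mean percentile of 67.5. Rpn13, which encodes a ubiquitin receptor, was lowest of all members with a TSS peak in both replicates. It had 1.33 (1.20 to 1.47) and 1.37 (1.24 to 1.52) and a mean percentile of 1.11. Its peak was 62 bp from the TSS in replicate 1 and reached it in replicate 2. In both replicates this peak covered the TSS of the divergent CtsL1, 271 bp away, and its summit lay at −285 and −295 bp. Rpn3, another lid subunit gene, had 1.70 (1.52 to 1.90) and 1.65 (1.47 to 1.85), a mean percentile of 11.2. The deubiquitinase gene Rpn11 had a mean percentile of 14.8, and Rpn10, which also encodes a ubiquitin receptor, one of 24.0.

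**Figure D4:**
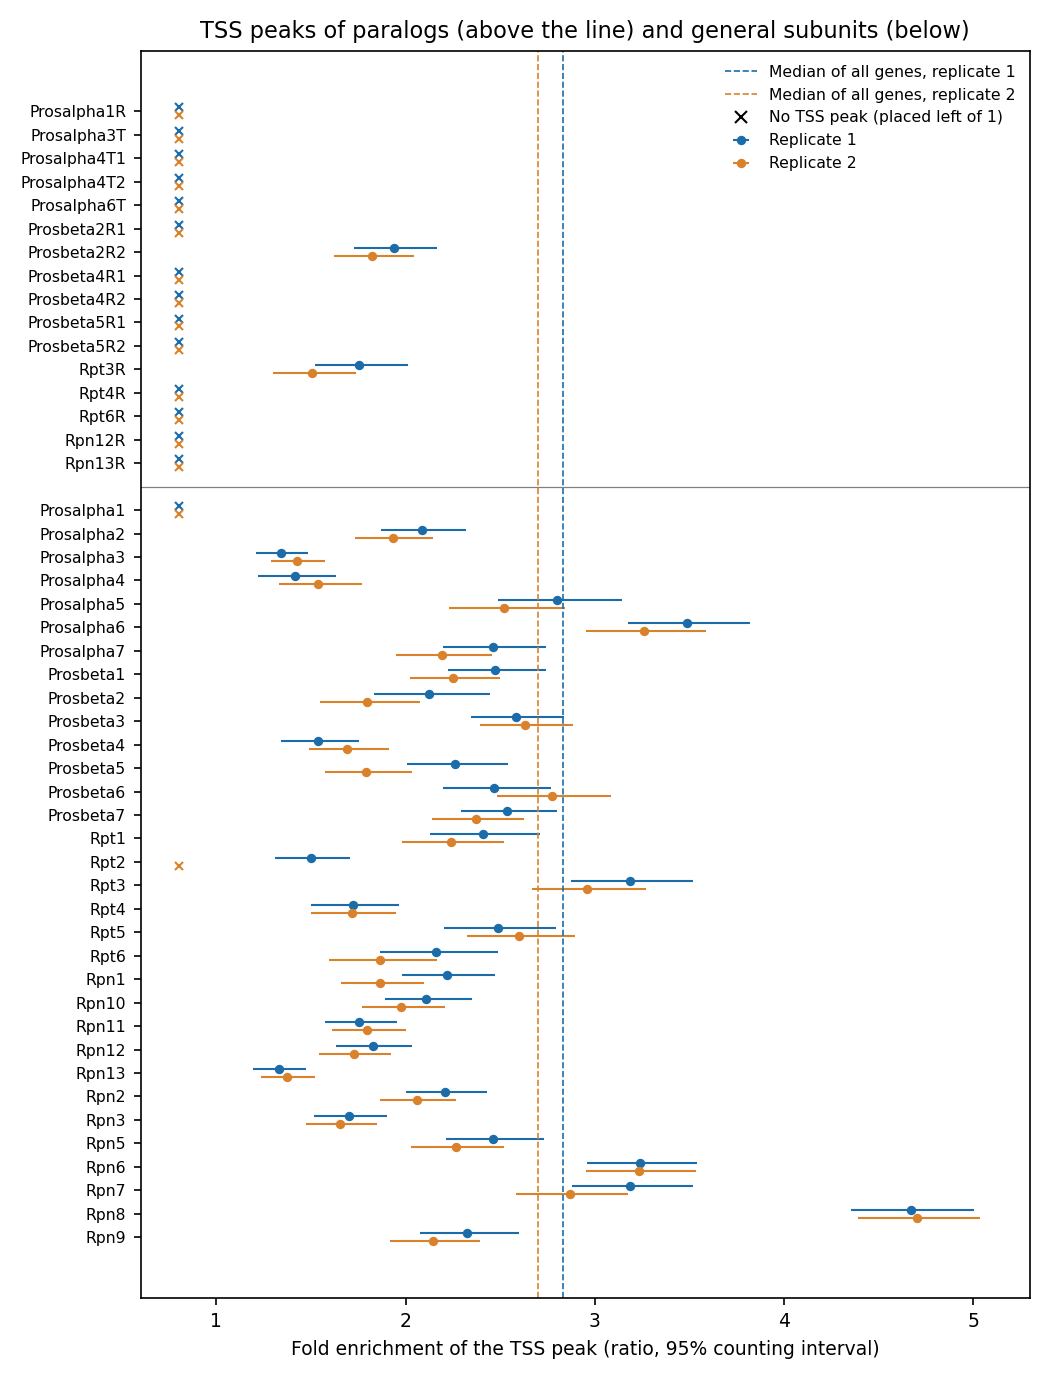
Fold enrichment of the TSS peak (horizontal axis, ratio) of each of the 48 genes in both replicates (points, with exact Poisson 95% intervals of the pileup), paralogs above the grey line and general subunit genes below it. Crosses mark genes without a TSS peak, and dashed lines mark the medians of all protein-coding genes, 2.83 and 2.70. Rpn8 stands apart at 4.67 and 4.71.

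Many general subunit genes had the TSS of a divergent neighbour close by. The nearest TSS of another gene was divergent and within 500 bp for 2 of 16 paralogs (12.5%) and 20 of 32 general genes (62.5%), against 27.1% of all protein-coding genes. The median distance to the nearest TSS of another gene was 2108.5 bp for paralogs and 305 bp for general genes, against 1087 bp for all. The TSS peak covered a TSS of another gene in both replicates for 2 of 2 paralogs and 17 of 30 general genes (56.7%). For general genes this share was near the 51.8% of all genes open in both replicates. The general genes with the highest percentiles had such a shared peak: Rpn8 with Slik, Prosalpha6 with the sterol transport gene Npc1a, Rpn6 with ave, and Rpt3 with CG11122. General genes whose peak covered another TSS had a median mean percentile of 35.3, against 22.8 for the 13 others, and among all genes the values were 55.2 and 44.8. For the shared peaks the signal of the subunit gene and of its neighbour cannot be told apart.

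Summits lay close to the start sites. Over the 30 general genes the median distance from the summit to the nearest TSS of the gene was 107.5 and 94 bp in replicates 1 and 2, against 151 and 153 bp for all genes. Summits were upstream of the TSS for 18 genes (60.0%) in replicate 1 and 19 genes (63.3%) in replicate 2, against 59.5% and 59.4% of all genes. A summit more than 500 bp from the nearest TSS in both replicates was found for 3 of the 30 genes (10%), against 12.8% of all genes open in both. These were Prosbeta6 and Rpt3, at the distances given above, and Prosalpha4, at −590 and −501 bp. The strongest peak covered a TSS of the gene itself in both replicates for 26 of the 30 general genes (86.7%), about the share of all genes open in both (86.2%). At Prosalpha3, Prosalpha4, Prosbeta4 and Rpn13 it did not.

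**Figure D5:**
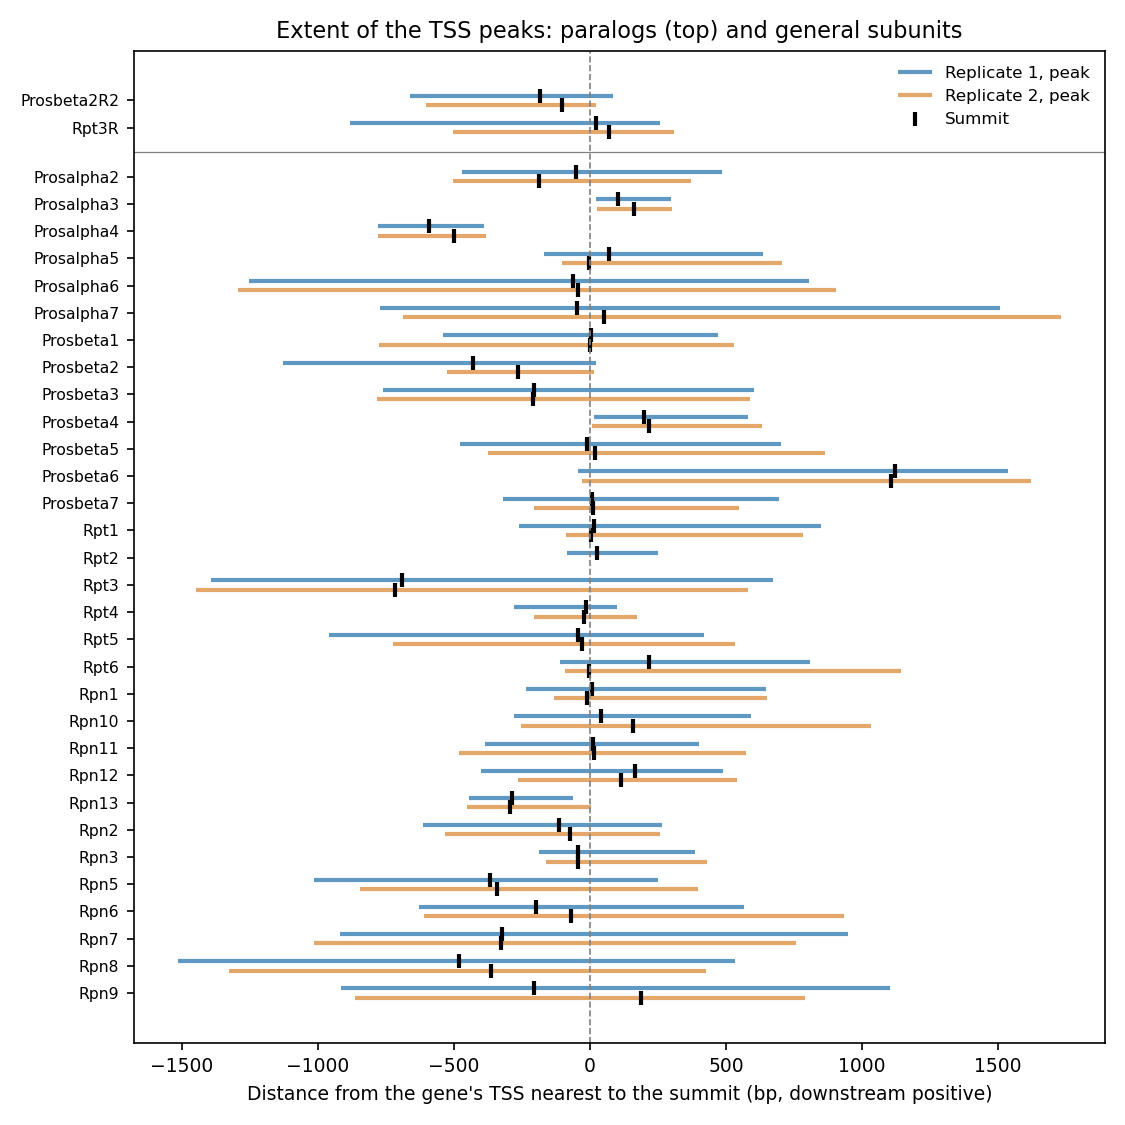
Extent of each TSS peak (bars, one per replicate) and its summit (black tick) as distance in bp from the TSS of the gene nearest to the summit, negative upstream, for the 2 paralogs with a TSS peak (top) and the general subunit genes. The peaks of Prosalpha4 end 388 and 384 bp upstream, and the summits of Prosbeta6 lie 1123 and 1106 bp downstream.

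The replicates gave the same picture. Across the 30 general genes the fold enrichments of the replicates had a Spearman rho of 0.966, and across all genes open in both replicates one of 0.968. Genes are not independent replicates, and both libraries share the base composition of each promoter, so no p-value is given. The percentiles of the general genes differed by a median of 2.62 points between replicates and by at most 17.7, against a median of 3.94 for all genes. Of the 30 genes, 9 had a higher fold enrichment in replicate 2 (30%), as 27.4% of all genes did. The differences between members were wider than this: the mean percentiles ran from 1.11 to 95.3.

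Most listed genes of the ubiquitin pathway were also open, with a higher median strength. Of 19 matched genes, 18 had a TSS peak in both replicates (94.7%), against 55.9% of all protein-coding genes. Their median mean percentile was 71.0, against 28.9 for the general subunit genes and 51.0 for all genes open in both replicates. The strongest peak was taken over all TSSs of a gene, and the lists differed in these. A single TSS position was annotated for 47.4% of pathway genes and 68.8% of general subunit genes. Among open genes with 1 TSS position the median was 23.8 for general subunit genes and 45.1 for all genes. For the pathway list this restriction was not tested. Uba1, the ubiquitin-activating enzyme gene, had a fold enrichment of 4.77 and 4.79, a mean percentile of 96.0. TER94, which encodes the ATPase that extracts ubiquitylated proteins, had 4.68 and 4.05, and Pomp, the gene of a core assembly factor, had 4.13 and 3.97. The transcription factor gene cnc had 4.18 and 3.84, a mean percentile of 87.6. Usp14, the gene of a deubiquitinase that binds the proteasome, was the lowest at 1.70 and 1.69, a mean percentile of 11.9. RpS27A, PI31, RpL40 and maf-S also ranked below the median of all genes, with mean percentiles of 26.1, 29.9, 30.7 and 38.4. REG, which encodes an alternative cap of the core, had no TSS peak.

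Other gene families were set beside the paralogs. Of 17 matched germline and testis genes, 3 were open in both replicates and 14 had none in any, close to the 2 and 14 of the 16 paralogs. The 3 were vas, bol and twe, with mean percentiles of 62.3, 52.7 and 4.38. Of 33 genes of the vacuolar proton pump (Vha), a family that also has copies of restricted use, 19 were open in both replicates (57.6%) and 14 had none in any (42.4%), close to the 55.9% and 41.4% of all protein-coding genes. By symbol, all 14 Vha genes without a peak were later copies, such as Vha100-3, Vha14-2 and Vha16-2, while Vha100-1, Vha14-1 and Vha16-1 were open. The later copies Vha100-2, Vha16-5, Vha68-2 and VhaM9.7-b were open too. A split between main genes and copies is thus not particular to the proteasome. The open Vha genes had a median mean percentile of 55.5, against 28.9 for the open general subunit genes of the proteasome.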

How the data were processed

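ATAC-seq peak lists of 2 naive MB replicates were used. As the study's methods state, reads were trimmed by the authors with Trimmomatic 0.39, aligned with Bowtie2 2.4.1 to dm6, and shifted for Tn5, and duplicate, multi-mapping, mitochondrial and scaffold reads were removed. Peaks were called with MACS2 2.1.2 at a q-value of 0.01 in each replicate alone. The deposited fold enrichment is a ratio, and the p-value and q-value were deposited as −log10 values. The score in the deposited lists, made from the −log10 q, was not used. No control library was named, so open DNA around a summit can raise its background and lower the ratio. The pileup was solved from the ratio (pseudocount 1) and the Poisson p-value. It lay within 0.0183 and 0.0221 of whole numbers, and its median over all peaks was 219 and 216, a counting error of 6.76% and 6.80%.

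TSSs came from Ensembl release 115 without transposable elements, and sequences from the RefSeq copy of the same assembly, whose chromosome lengths contained all peaks. Tables were made with Python 3.11.15, numpy 2.4.6, pandas 2.3.3 and scipy 1.17.1. Pileup recovery, TSS peak assignment and percentiles were tested on simulated or made-up values, and the other steps were not. Members and gene lists were chosen with earlier results of these data known. Named were paralogs with a peak, general genes lacking one, the 2 highest and 2 lowest of each class, the pairs, and up to 4 shared peaks. Some catalytic and ubiquitin-handling subunit genes outside this rule (Prosbeta1, Prosbeta5, Rpn10, Rpn11) were named after their values were seen. Ufd1-like, nos and Adcy1 were not matched by symbol and are not reported here.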

Additional observations from a re-analysis of the deposited data

How the results depend on the processing

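No paired analysis was possible because the series held 1 group. Of 68 alternative values, 28 moved past a tolerance and 40 did not, and the causes were not tested. The tolerance was 1.5 times for counts, 1 SD between replicates for medians and the exact binomial 95% interval for motif shares, so that counts could move more than medians: all protein-coding genes open in both replicates numbered 5346 under the rule of the nearest TSS, against 7803. Counting a peak only for the TSS nearest to its summit left 0 paralogs and 19 general genes open in both replicates. That rule can only lower a count, and which genes are lost depends on where the summits lie. The general genes lost were Prosalpha4, Prosbeta3, Prosbeta6, Rpn5, Rpn6, Rpn7, Rpn8, Rpn9, Rpn13, Rpt3 and Rpt5. The paralogs lost were Prosbeta2R2 and Rpt3R. Requiring a peak over the TSS lost Prosalpha3, Prosalpha4, Prosbeta4 and Rpn13, a −log10 q of at least 5 lost Prosalpha4, and without replicate 2 Rpt2 was gained.

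Median percentiles moved with the ranking. For general genes they were 33.7 by −log10 q and by −log10 p, 58.8 among all peaks (all genes 73.6) and 44.2 by summit pileup, the last chosen after seeing the data. For the 2 open paralogs the median of 13.9 became 16.3 by −log10 q and by −log10 p, 40.6 among all peaks, 9.92 with peaks over the TSS, 10.2 with a −log10 q of at least 5, and 24.8 by pileup. By −log10 q the alpha, beta, Rpt and Rpn medians were 33.3, 41.4, 32.8 and 32.3. With peaks over the TSS they were 36.8, 33.1, 29.5 and 22.6, and by pileup 44.0, 42.5, 31.5 and 46.9. Leaving out a replicate gave 29.9 to 33.5 for Rpt and 25.3 to 27.6 for Rpn genes. Rank orders among classes thus changed with the measure. The DRE share of general genes was 12.9% and 20% at the summits of replicates 1 and 2.

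A peak list gives no value below its threshold, so a gene without a peak is not shown to be closed.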
